A study of Mus musculus with 21 samples.

Results

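DNase I hypersensitive sites (DHS) that were present in 3 successive lymphoid progenitor stages, lay outside every TCF1 peak, and were much weaker at the last stage than at the first were examined. The first stage, ALP, is the all-lymphoid progenitor. It is followed by EILP, an early progenitor of innate lymphoid cells, and by ILCP, their precursor. The deposited peaks of the 3 stages on chromosomes 1 to 19 and X were merged wherever they shared at least 1 bp, which gave 102313 regions, of which 39851 held a peak of all 3 stages. Of these shared regions, 36734 overlapped no TCF1 peak of EILP and 3117 did. Members were selected on measured values: the highest pileup in the region, which is the number of extended tags over the summit, was expressed per 1000000 tags kept in that stage (RPM), and the ILCP value had to be at most 0.5 of the ALP value. This left 2229 regions, 6.07% of the shared DHS without TCF1 and 2.18% of all merged regions. Because ALP and ILCP heights chose the members, those heights are given below as a description and support nothing. Of EILP the rule used only that a peak was called, and of position only the chromosome and that no TCF1 peak overlapped.

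All cells were sorted from bone marrow of C57BL/6 mice whose ages the labels do not give. ALP were Lin- Kit+ 2B4+ a4b7- Flt3high IL-7Ra+ cells of genotype Tcf7EGFP/+, and ILCP were Lin- Kit+ 2B4+ a4b7+ cells of the same genotype that were also Tcf7+, Thy1+ and IL-7Ra+. EILP were Lin- Kit+ 2B4+ a4b7+ Tcf7+ Thy1- cells labelled Tcf7EGFPnull/+, although the headers of all 3 DNase-seq lists read WT. The stage and that allele therefore cannot be told apart in a comparison with EILP. DNase-seq had 3 libraries per stage, each of 300 cells digested with 0.3 units of DNase I for 5 min. TCF1 binding was measured by CUT&RUN in EILP labelled Tcf7EGFPnull/+, with 500 cells per library, from 6 TCF1 and 4 IgG libraries. A further 2 libraries carry a TCF1 title and an IgG description and were put in no group, but their library number is in the pooled control of the TCF1 peaks. The authors pooled the libraries of a stage before calling peaks, so there is no spread between libraries, no replicate test was possible, and the intervals below cover counting error only.

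DNase I cuts DNA where nucleosomes are displaced, and DHS mark promoters, enhancers and other regulatory elements. ALP can still give rise to several lymphoid lineages, whereas EILP and ILCP lead toward innate lymphoid cells. TCF1, the product of Tcf7, is an HMG-box factor that marks and is needed for early innate lymphoid development. A DHS height in a pooled population can be lower because fewer cells are open at the site or because each cell is cut less often, and these cannot be told apart here.

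The ALP list rested on 12420429 tags after filtering, the EILP list on 11236009 and the ILCP list on 12681410. The TCF1 list rested on 2418839 tags and held 6679 peaks, so absence of a TCF1 peak means absence from a shallow list. The weakest DHS peak of each stage had 5 tags at its summit. That is 0.403 RPM in ALP, 0.445 in EILP and 0.394 in ILCP. A member could not have an EILP or ILCP height below the floor of that stage. Since at most 1 tag was kept per position, strand and 100 bp fragment window, a summit could not exceed 200 tags. Over all shared DHS without TCF1 the median log2 ratio was 0.06 for ILCP to ALP and 0.14 for EILP to ALP. These medians are the level against which the members' changes are read.

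The typical member was a strong ALP site that was a weak one in ILCP. At the summit, members had a median of 23 tags in ALP (quartiles 19 and 30, range 10 to 61), 16 tags in EILP (quartiles 12 and 22, range 5 to 47) and 9 tags in ILCP (quartiles 7 and 11, range 5 to 29). Scaled to depth, the medians were 1.85 RPM in ALP, 1.42 in EILP and 0.71 in ILCP. Over all 36734 shared DHS without TCF1 the corresponding medians were 1.37, 1.51 and 1.42 RPM. Members therefore stood above the ordinary shared site in ALP, close to it in EILP and below it in ILCP. The median ILCP to ALP ratio was 0.408 (quartiles 0.343 and 0.461), or -1.29 on the log2 scale, and 506 members (22.7%) had a ratio of at most 0.333. Another 700 members (31.4%) had a ratio above 0.45, close to the limit of the rule. In the opposite direction, 1574 of the same 36734 regions (4.28%, Wilson interval 4.08 to 4.5) had an ALP height of at most 0.5 of the ILCP height. Those regions are called the strengthening DHS below.

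**Figure D1:**
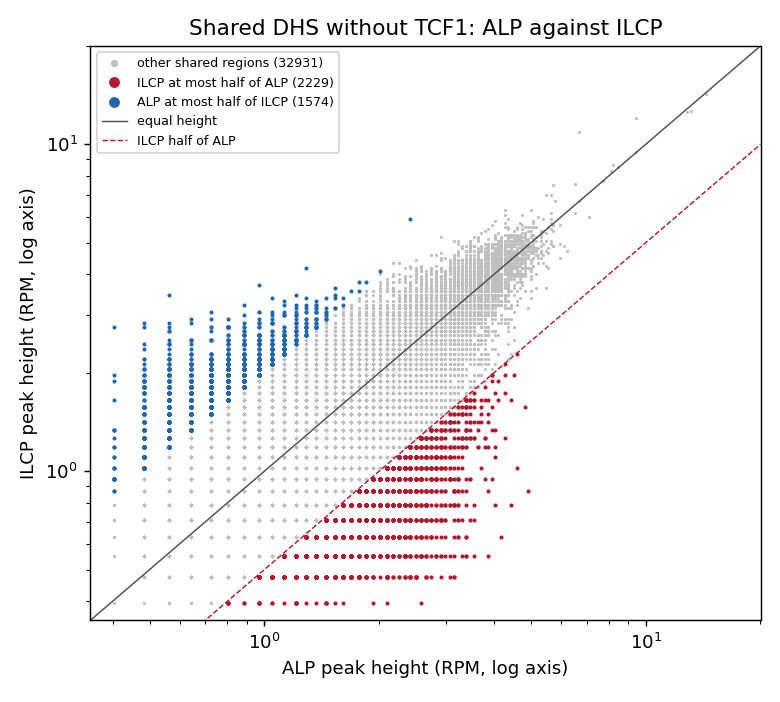
ALP peak height (x axis) against ILCP peak height (y axis) of the 36734 shared DHS without TCF1, in RPM on log axes, 1 point per region. Red points are the 2229 members, below the dashed line at 0.5 of the ALP height, blue points are the 1574 regions with the opposite change, and most regions lie around the line of equal height.

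Counting error alone was large for many members. The 95% interval of the ILCP to ALP ratio, from an exact binomial interval on the summit tags of both stages, lay under 1 in 1529 members (68.6%). It lay at or under 0.5 in 72 members (3.23%). The summit tags of ALP and ILCP also chose the members, so these shares describe depth and are no test of a change. Of the 216 members with 10 to 15 ALP tags, 2.31% had an interval under 1, against 87.7% of the 912 members with 21 to 30 tags and 100% of the 113 members with 41 to 61 tags. Of all members, 606 (27.2%) had 5 to 7 ILCP tags and so stood just above the lowest height the caller kept. The members just inside the rule had 49, 29 and 25 tags in ALP, EILP and ILCP on chromosome 2 (mm9 chr2:158492127-158492467) and 20, 12 and 10 on chromosome 1 (chr1:140414058-140414268). The regions just outside had 47, 31 and 24 tags (chr6:91456022-91456410) and 43, 35 and 22 tags (chr12:107248187-107248980). The regions on either side of the limit could not be distinguished. With the authors' fold enrichment in place of RPM, 1087 regions met the ratio, and with only peaks of −log10 q of at least 5 in each list 942 did.

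The members with the lowest ratios, taken among the 1001 members with at least 2 RPM in ALP, were strong, wide ALP sites that were still called in ILCP with few tags. The lowest ratio was at chr17:47679025-47679380 on mm9, a region of 356 bp with 48 ALP tags, 18 EILP tags and 7 ILCP tags. Its ratio was 0.143 (95% interval 0.0545 to 0.317). At chr6:100113100-100113629 the summit had 52 tags in ALP, 23 in EILP and 8 in ILCP. At chr7:50788325-50789010 it had 39, 22 and 6 tags. In these 3 regions EILP lay between the other stages. At chr15:36171150-36171490, by contrast, EILP was already low, with 39, 10 and 6 tags. At chr17:73710366-73710802 EILP was still as high as ALP, with 32, 30 and 5 tags, or 2.58, 2.67 and 0.394 RPM. The ILCP drop to the caller's floor came entirely at the last step there. The upper interval limit of the ratio was at most 0.5 in all 10 lowest-ratio members, and EILP lay between ALP and ILCP in 9 of the 10. These 10 were picked by the same tags that give the interval, so its limit is only a description. The ILCP peaks of all 10 had a −log10 q of 1.84 to 3.76, so none of these regions is a shared DHS when a −log10 q of at least 5 is required.

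The members with the highest ALP peaks kept more signal in ILCP. The strongest was chr7:38974358-38974926, with 61 tags in ALP, 32 in EILP and 11 in ILCP, a ratio of 0.177 (0.0838 to 0.339). The site at chr1:89547129-89547737 had 57, 33 and 13 tags, and chr15:58835623-58836209 had 55, 24 and 10. These were the 3 of the 10 highest whose upper interval limit was at most 0.5. The other 7 had 20 to 29 ILCP tags. Among them, chr11:32465190-32465607 had 60, 43 and 20 tags, chr4:102189570-102189941 had 55, 41 and 21, and chr7:132773735-132774208 had 57, 27 and 29. In RPM, EILP lay between ALP and ILCP in all 10.

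**Figure D2:**
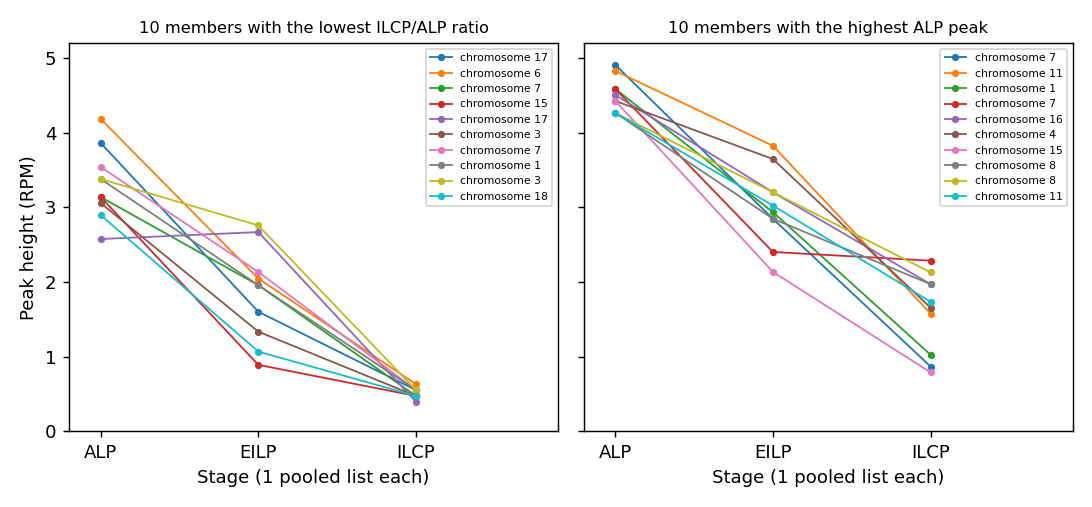
Peak height in RPM (y axis) in ALP, EILP and ILCP (x axis, 1 pooled list per stage, no error bars because there are no replicates) for the 10 members with the lowest ratio (left) and the 10 with the highest ALP peak (right), 1 line per region named by its chromosome. On the left, 9 of 10 lines go down at both steps and end between 0.473 and 0.631, the other ends at 0.394, and on the right all 10 go down at both steps.

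EILP, whose height the rule did not use beyond requiring a peak, was intermediate in most members and nearer to ALP than to ILCP. The EILP height lay strictly between the other heights in 1619 members (72.6%, Wilson interval 70.7 to 74.4). In 523 members (23.5%) it was at or above ALP, and in 87 (3.9%) it was at or below ILCP. An intermediate value is the ordinary outcome once the ends are fixed far apart. Of all shared DHS without TCF1 36.9% had one, and of the strengthening DHS 78%. To place EILP, its log2 change from ALP was divided by the log2 change from ALP to ILCP, so that 0 is the ALP height and 1 the ILCP height. The median position was 0.26 in members, with quartiles 0.0211 and 0.518. In the strengthening DHS it was 0.69. Both sets thus had EILP nearer to the stage where the site was high, and the median log2 EILP to ALP change of members was -0.36 against 0.14 over all shared DHS without TCF1. When the stages were instead scaled to a median ratio of 1, the median positions were 0.35 and 0.60, on the same sides of the midpoint. ALP counts that chance put high and ILCP counts that chance put low enter every position, and their part in these values was not tested. A called EILP peak was required, so no EILP height could lie under 0.445 RPM. The part of this floor in the positions was not tested either.

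**Figure D3:**
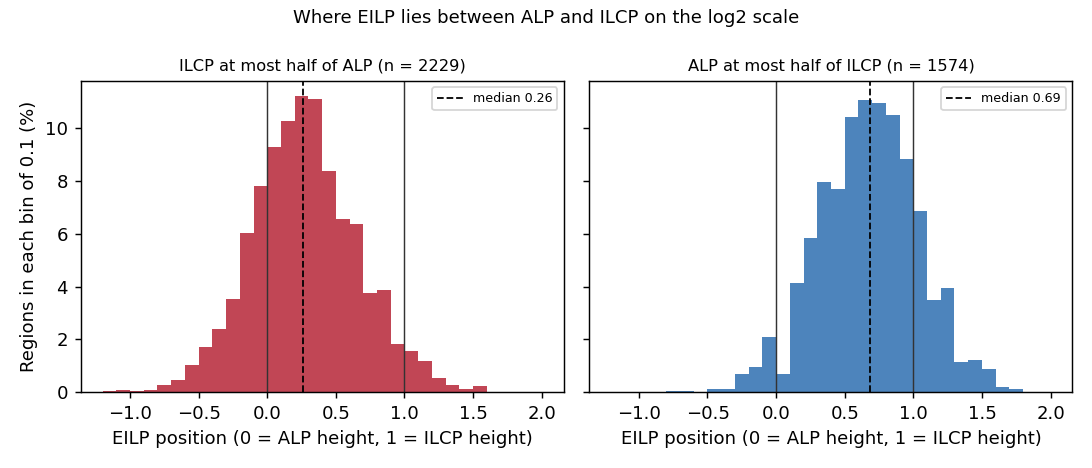
Histograms of the EILP position on the log2 scale (x axis, 0 is the ALP height and 1 the ILCP height) as a percent of regions per bin of 0.1 (y axis), for the 2229 members (left) and the 1574 regions with the opposite change (right). The dashed medians lie at 0.26 and 0.69, so each set leans toward the stage where its sites are high.

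Divided by step, more members had a 2-fold lower height from EILP to ILCP than from ALP to EILP. Over all 36734 shared DHS without TCF1, the EILP height was at most 0.5 of the ALP height in 563 (1.53%), and the ILCP height was at most 0.5 of the EILP height in 2220 (6.04%). Of the members, 1113 (49.9%, Wilson interval 47.9 to 52) met that ratio at the ILCP step only, 260 (11.7%) at the EILP step only, 20 (0.897%) at both and 836 (37.5%) at neither. The rule raises both shares, since a 2-fold change over both steps had to be reached, and scaling to a median ratio of 1 brought them to 41% and 16.5%. With fold enrichment in place of RPM they were 32.8% and 9.38%. Of the strengthening DHS, 626 (39.8%) doubled at the EILP step only and 156 (9.91%) at the ILCP step only. Over all shared DHS without TCF1, 1694 (4.61%) doubled at the EILP step and 503 (1.37%) at the ILCP step. In RPM, each set thus had its larger share at the step where its change was more frequent over all shared DHS without TCF1. Those overall counts include the sets themselves, so the match is partly built in. With median scaling the shares of strengthening DHS were 33.1% and 14.2%. The shares over all shared DHS without TCF1 were counted in RPM only. The median log2 EILP to ALP ratio of those regions was 0.14 in RPM and 0.00 in raw tags. The part of scaling in their shares was not tested.

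Members were then described by timing: early where the ratio was met at the EILP step only, late where it was met at the ILCP step only, and gradual where it was met at neither. The 260 early ones had medians of 26, 9 and 9 tags in ALP, EILP and ILCP. The 1113 late ones had 23, 21 and 8, so the classes differed mainly in EILP, by which they were defined. The 20 that met the ratio at both steps had 31, 13 and 6 tags and a median ILCP to ALP ratio of 0.19. The 836 gradual ones had 22, 14 and 10. The 523 members with EILP at or above ALP had 21, 22 and 8 tags, and 46 of them had an EILP height of at least 1.5 times ALP. Position also moved with depth. The median position was 0.06 in the 216 members with 10 to 15 ALP tags and 0.36 in the 113 with 41 to 61. By ratio it was nearly level, at 0.30 in the 129 members with a ratio of at most 0.25 and 0.24 in the 700 above 0.45.

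Other readouts of the same peaks moved with the heights. The median peak width of members was 298 bp in ALP, 262 bp in EILP and 170 bp in ILCP, whereas over all shared DHS without TCF1 it was 218, 222 and 219 bp. The ILCP peak was narrower than the ALP peak in 91.4% of members, against 46.4% of all. Late members kept their width in EILP, with medians of 303, 291 and 165 bp, and early members did not, with 305, 194 and 166 bp. The caller counts as width the stretch above its threshold, so a lower summit gives a narrower peak, and width is no separate evidence of closing. The authors' fold enrichment over local background had medians of 10.6, 8.49 and 5.17, and the authors' −log10 q had medians of 19, 12.4 and 4.8. Local background, worked out from the fold enrichment, was lower in ILCP than in ALP in 92.7% of members and 46.5% of all shared DHS without TCF1. That background is taken over 10 kb around the peak and includes the peak's own tags.

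The summit was displaced more between ALP and ILCP in members than over all shared sites. ALP and ILCP summits were a median of 37 bp apart in members, 24 bp in strengthening DHS and 19 bp over all shared DHS without TCF1. They were over 100 bp apart in 260 members (11.7%) and in 6.57% of all. The ALP and EILP summits were a median of 26 bp apart in members and 19 bp over all, and over 100 bp apart in 5.52% (4.64 to 6.54) against 5.35%. Among the strengthening DHS 9.91% had ALP and ILCP summits over 100 bp apart. The ILCP summits of members had a median of 9 tags, and the part of such low counts in these distances was not tested. Requiring summits within 100 bp left 1969 members. Exactly 1 peak per stage was present in 95.9% of members and 95.2% of all, so few members held several peaks of the same stage. This count does not show whether peaks of different stages are the same site.

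By median distance and within 10 kb, TCF1 peaks were about as near to members as to all shared sites that TCF1 did not bind. Within 1 kb they were rarer near members than near all such sites, and the strengthening DHS lay between. The median distance to the nearest TCF1 peak was 61549 bp for members, 63628 bp for all shared DHS without TCF1 and 71831 bp for strengthening DHS. A TCF1 peak lay within 10 kb of 13.7% of members (12.3 to 15.2), 15% of all and 13% of strengthening DHS. Within 1 kb the shares were 2.65% of members (2.06 to 3.4), 3.8% of all (3.61 to 4) and 3.05% of strengthening DHS (2.31 to 4.02). Of the 3117 shared DHS with TCF1, 127 (4.07%, 3.44 to 4.83) met the members' ratio, a lower share than the 6.07% (5.83 to 6.32) without TCF1. The opposite change was made by 149 TCF1-bound regions (4.78%, 4.09 to 5.59). By quintile of EILP height, the TCF1-bound share was the lower one in 4 of 5. Only in the fourth, with 5.19% (3.79 to 7.07) against 7.6%, did its counting interval leave out the unbound share. The lowest quintile had the higher TCF1-bound share, 7.22% (4.27 to 12) against 5.46%, a difference within its counting interval like those of the other 3. Weighted to the EILP heights of the unbound regions, the TCF1-bound share was 5.4%, against 6.07%. Weighted to their ALP heights, which the rule used, it was 3.03%, so the size of the gap depended on which height was matched.

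Members were found on every chromosome examined. Chromosome 13 had the highest share, 131 of 1589 shared DHS without TCF1 (8.24%, 6.99 to 9.7), followed by chromosome 1 with 174 of 2329 (7.47%). The X chromosome had the lowest, 19 of 681 (2.79%, 1.79 to 4.32), against 2210 of 36053 on the autosomes (6.13%, 5.89 to 6.38). The strengthening share on X was low as well, 2.64% against 4.32%. The median log2 ILCP to ALP ratio of X was 0.05 and that of the autosomes 0.07, so X held fewer regions at either extreme, not a shift. X sites had fewer tags, with medians of 14 in ALP and 16 in ILCP against 17 and 18 on the autosomes. The sex of the animals behind each pool is not given in the sources used here.

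**Figure D4:**
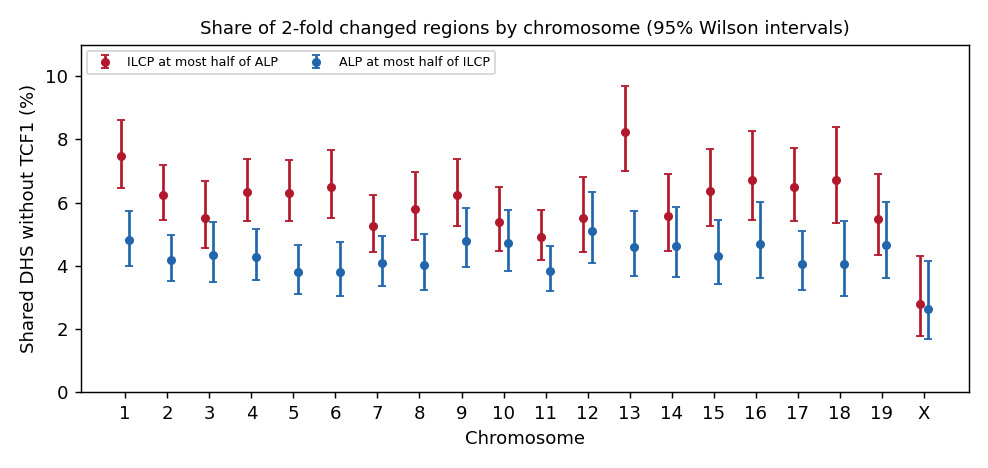
Percent of shared DHS without TCF1 (y axis) on each chromosome (x axis) that are members (red) or have the opposite change (blue), with 95% Wilson intervals for counting error. Chromosome 13 has the highest member share, 8.24%, and X the lowest, 2.79%.

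The nearest other shared DHS, with or without TCF1, also tended to be lower in ILCP. Among the 1650 members with such a neighbour within 20 kb, the neighbour's median log2 ILCP to ALP ratio was -0.12 (95% order-statistic interval -0.15 to -0.07). For all 27053 shared DHS without TCF1 that had a neighbour within 20 kb it was 0.06, and for strengthening DHS it was 0.12. The neighbour met the members' ratio in 11.5% of cases (10 to 13.1) against 5.77% for all. The shift was larger at short distance. Within 5 kb the neighbour's median was -0.24 (-0.32 to -0.18) for 550 members, and 17.3% of neighbours met the ratio against 4.44% for all. Between 10 and 20 kb the median was -0.03 (-0.08 to 0.06) for members and 0.06 for all. In EILP against ALP, the neighbours within 20 kb had a median of 0.07, against 0.14 for all. The neighbours of late members and of early members had medians of -0.11 (-0.15 to -0.03) and -0.14 (-0.28 to -0.03).

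This neighbour difference depended on the measure. When fold enrichment replaced RPM, both to choose the members and to measure the neighbours, the difference between members' neighbours and all neighbours went from -0.17 to 0.00. Fold enrichment divides by a background over 10 kb that, for close neighbours, holds tags of the member itself. The parts of this background and of the changed set of members in the difference were not tested. With neighbours that met the ratio left out, in RPM, the difference was -0.12. Some pairs of members are each other's neighbour, so these regions are not independent of one another.

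**Figure D5:**
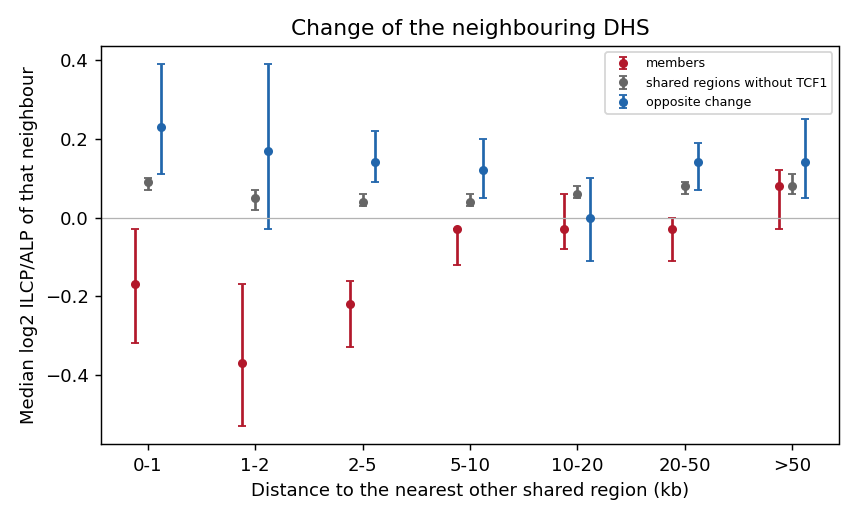
Median log2 ILCP to ALP ratio of the nearest other shared DHS (y axis), by its distance in kb (x axis), for members (red), all shared DHS without TCF1 (grey) and those with the opposite change (blue), with 95% order-statistic intervals. The members' medians lie between -0.37 and -0.17 up to 5 kb and between -0.03 and 0.08 farther out.

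DHS that were absent from ILCP were also more frequent near members, as to some extent were other DHS not open in all 3 stages. Within 50 kb, members had a mean of 1.16 regions open in ALP and EILP but not ILCP, against 0.92 for all shared DHS without TCF1 and 0.861 for strengthening DHS. At least 1 such region was present for 62.9% of members and 54.8% of all. Regions open in ALP only averaged 1.27 near members and 1.03 near all. Regions of EILP only averaged 0.989 near members and 0.887 near all. Regions of ILCP only were also slightly more frequent near members, 1.5 against 1.41, as were regions of EILP and ILCP, 0.903 against 0.83. For regions of ALP and ILCP the means were 0.377 and 0.364. Regions of all 3 stages were no more frequent, 3.89 against 4. A region absent from ILCP is one below the caller's cutoff there. The 9569 regions of ALP and EILP with no ILCP peak and no TCF1 peak had medians of 11 tags in both stages, under the members' 23 in ALP and 16 in EILP.

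Most members had no other member close by. Another member lay within 5 kb of 88 members (3.95%), within 10 kb of 168 (7.54%) and within 50 kb of 572 (25.7%). Members were 6.07% of shared DHS without TCF1, and the same counts were not made for other sets. These shares therefore do not tell whether members are spread or grouped. Joined at gaps of up to 10 kb, 2061 members stood singly, 81 groups held 2 members and 2 groups held 3. The first group of 3, at chr12:86873517-86887080 (13.6 kb), had 33, 26 and 11 tags at one site, 42, 43 and 20 at the next and 36, 16 and 15 at the last. These were all the shared DHS without TCF1 in that span. The second, at chr7:4024793-4039498 (14.7 kb), had 24, 21 and 7 tags, then 36, 25 and 16, then 21, 15 and 9. The log2 EILP to ALP ratios were -0.20, 0.18 and -1.03 in the first group and -0.05, -0.38 and -0.34 in the second. No counting interval was computed for these ratios, and a difference in timing between close sites was not tested.

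On a larger scale, 1117 of the 2133 windows of 1 Mb that held a shared DHS without TCF1 held a member. At least 5 members fell in 59 windows, and at least 5 of the fewer strengthening DHS in 12. The fullest window, chromosome 13 from 37000001 to 38000000, held 10 members among 38 shared DHS without TCF1 (26.3%, 15 to 42) and 2 strengthening DHS. The median log2 ILCP to ALP ratio of its 38 regions was -0.48, and 2 of its 3 TCF1-bound regions met the ratio too. Its strongest member, chr13:37783910-37784311, had 48, 17 and 15 tags. In chr13:37734232-37734807 the tags were 42, 35 and 21, and in chr13:37574445-37574856 they were 31, 36 and 14. Chromosome 1 from 155000001 to 156000000 held 8 members among 32 (25%), and chromosome 2 from 166000001 to 167000000 held 8 among 43 (18.6%), where none of 7 TCF1-bound regions met the ratio. Chromosome 13 from 111000001 to 112000000 held 7 members among 17 (41.2%), no strengthening DHS, and a median log2 ratio of -0.56. These windows were picked as the fullest, so their shares are a description of where members were densest. Genes near these regions are not named because no annotation of mm9 was used here.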

How the data were processed

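DNase-seq of ALP, EILP and ILCP and TCF1 CUT&RUN of EILP were used as peak lists. Peaks were called by the authors on tags pooled over libraries with MACS 2.1.1.20160309, per the file headers, with a q cutoff of 0.05 and 100 bp fragments from 50 bp tags, 1 kept per position. Per the file headers, DNase-seq tags were shifted by 50 bp, no control was given, and the background was taken over 10 kb. Coordinates are mm9, as the submitters' processing notes state. The aligner is not given in the sources used here.

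The deposited pileup signal at the summit was expressed per 1000000 tags after filtering (RPM). The deposited fold enrichment (a ratio to local background) and the deposited −log10 q-values were used to describe peaks and in alternatives. The authors' local background was recovered from the fold enrichment, taken to be (pileup + 1) / (background + 1). Shares have 95% Wilson intervals, ratios exact binomial intervals conditional on the summed tags, and medians order-statistic intervals. No group had replicate values, so no p-value was computed. Analyses used Python 3.11.15, pandas 2.3.3, numpy 2.4.6 and scipy 1.17.1, and were tested on simulated data.

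Named regions were the 10 members with the lowest ratio among those with at least 2 RPM in ALP, the 10 with the highest ALP peak, those nearest the ratio limit, and the members of the fullest 1 Mb windows and of groups of 3. The members, lists and comparisons were chosen with earlier results of these data known. Promoter shares, motifs, sequences and gene lists were left out because no mm9 genome or annotation was used here.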

Additional observations from a re-analysis of the deposited data

How the results depend on the processing

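Of 92 values of the main results under alternatives, 53 stayed close to the reported value and 38 moved. The other 1, the neighbour difference with fold enrichment, was 0.00 (-0.04 to 0.05), so it was lost and not opposite in direction. With fold enrichment there were 1087 members (1052 of the 2229), 2.96% of shared DHS without TCF1 and 1.6% with TCF1; EILP was intermediate in 83.6%, its position 0.33, the EILP-only and ILCP-only shares 9.38% and 32.8%, and the neighbour difference 0.00. With median scaling the member share was 7.06%, the share of lower among 2-fold changed regions 66.6% (58.6% as reported), the intermediate share 76.9%, the position 0.35 and the step shares 16.5% and 41%. With a ratio of one in 3 there were 506 members (1.38%, and 0.834% with TCF1), 72.1% of changed regions lower, 84.8% intermediate and a neighbour difference of -0.11. The step shares there were 4.55% and 31.8%, but each step then also had to reach one in 3. They are therefore not comparable with the 2-fold step shares. At the 2-fold limit, the 129 members with a ratio up to 0.25 had 14.7% EILP-only and 69.8% ILCP-only. The 377 with a ratio from 0.25 to 0.333 had 17.8% and 71.6%. With −log10 q of at least 5 there were 942 members (3.39%; 2.91% with TCF1), 76.4% intermediate, position 0.30 and step shares of 9.87% and 43.3%. With at least 20 ALP tags, a cutoff that removes most strengthening DHS by construction, the shares were 10.7% and 5.08% with TCF1, 99.5% lower, 76.6% intermediate, position 0.29, 13.5% EILP-only and a neighbour difference of -0.22. Alternatives chosen after seeing the data gave a member share of 5.74% with summits within 100 bp, and a neighbour difference of -0.12 without neighbours that met the ratio and -0.30 within 5 kb. Merging at 50 bp, autosomes only, no TCF1 peak within 1 kb and 1 peak per stage moved none of these. Apart from the 20-tag cutoff, the cause of these moves was not tested. The 20 named regions under 10 alternatives make 200 values. In 12 the alternative removed the region, among them all 10 lowest-ratio regions with −log10 q of at least 5. Of the other 188, 177 kept the ratio and 11 no longer met it; 5 of these came with fold enrichment, such as -0.05 (log2) at chr7:132773735-132774208.

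No paired analysis was possible because each stage has 1 pooled list, which also means that none was left out. Another promoter distance and another motif window were not run, since both need an mm9 genome. Depth also limits single regions: 68.6% of members had a counting interval of the ratio under 1, and the rest did not.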
